A study of Mus musculus with 2 samples.

Results

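The 10 genes studied here belong to fibroblast growth factor (FGF) signalling and were followed through single-nucleus RNA sequencing (snRNA-seq) of mouse cerebellum at postnatal day 1 (P1): the secreted ligands Fgf5, Fgf8, Fgf9, Fgf10, Fgf17 and Fgf18, and the receptors Fgfr1, Fgfr2, Fgfr3 and Fgfr4. They were picked by symbol from the 32285 genes counted, as 6 ligands and 4 receptors, and all 10 had a row in both count tables. The levels of several of them in these libraries were known when they were selected, so their differences below are descriptions. The control library was made from Cre-negative littermates, given as Tox3f/f in the genotype label and as Tox3f/f or Tox3f/+ in the library name. The other library came from Nestin-cre;Tox3f/f conditional knockouts (cKO), in which a Nestin promoter drives Cre in the neural lineage to delete the floxed nuclear factor Tox3, so both groups carry floxed Tox3. Each library pooled 12 cerebella. With 1 library per genotype no difference has a replicate check, and every interval below is an exact 95% interval that covers counting error only.

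FGFs are secreted ligands that pair FGF receptors, which are tyrosine kinases, with the help of heparan sulphate. The receptors act largely through Ras and MAP kinase, which raise the ETS factors Etv4 and Etv5 and the inhibitors of the Sprouty and Dusp families. In the developing hindbrain Fgf8, Fgf17 and Fgf18 form 1 ligand subfamily that patterns the midbrain and cerebellum from the isthmus, and Fgf9 from neurons is known to act on Bergmann glia. In the P1 cerebellum granule neuron progenitors (GNPs) divide in the outer layer and give rise to granule neurons (GN), while Purkinje cells and Bergmann glia lie beneath them.

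Tox3, the targeted gene, had 2127 UMIs (unique molecular identifiers, each taken as 1 RNA molecule) in the control library and 3571 in the library labelled cKO. As UMIs per 1000000 UMIs of the same nuclei (CPM) these are 104 and 118, so Tox3 was not lower under the knockout label. The tables count the whole gene and do not show which exons were read, so this check does not settle the label, and in GNP-like nuclei, described below, Tox3 was 251 and 552 CPM. For this reason that library is named by its label throughout. The libraries did differ in Atoh1, the factor that defines the granule lineage, with 42 and 3 UMIs over all nuclei, and in the share of GNP-like nuclei given below. After filtering, 4667 and 6555 nuclei remained with a median of 3978 and 4025 UMIs, and 9 cell barcodes occurred in both libraries. The nuclei fell into 24 clusters, 21 of which were named from marker genes into 10 classes. A pair of shallow clusters stood apart and mostly belonged to 1 library each: cluster 1 (984 control nuclei, 62 labelled cKO) and cluster 5 (32 and 642), which together had a median of 619.5 UMIs in the control library and 576 in the other. Cluster 3 had 6 GN markers but a marker of another class, Slc17a6, among its leading genes, and stayed unnamed. Nuclei of the GNP-like class made up 11.01% of the control library (514) and 1.78% of the other (117), so a level summed over all nuclei moves with these shares, and fewer cells of a type cannot be told apart there from less RNA per cell.

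Promoter windows were available for 7 of the 10 genes (RefSeq, GRCm38.p6), and not for Fgf8, Fgf17 and Fgfr1. Of the genes at least 1.5-fold apart over all nuclei, Fgf8 thus had none, and the windows of Fgfr3 lay wholly in GENCODE exons. The windows of Fgfr4, Fgf5 and Fgf10, the others of these genes, are shown. Each runs 5′ to 3′ up to the RefSeq start (Fgf5, chr5:98253934-98254183, plus strand; Fgf10, chr13:118714449-118714698, plus strand) or, for Fgfr4, to the first exon base of any GENCODE model (chr13:55152568-55152639, plus strand). Capitals mark the E-box letters CANNTG, the class of site used by basic helix-loop-helix factors such as the GNP factor Atoh1, and this motif reads the same on both strands.
Fgfr4: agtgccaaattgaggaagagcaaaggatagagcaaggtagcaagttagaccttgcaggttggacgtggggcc
Fgf5: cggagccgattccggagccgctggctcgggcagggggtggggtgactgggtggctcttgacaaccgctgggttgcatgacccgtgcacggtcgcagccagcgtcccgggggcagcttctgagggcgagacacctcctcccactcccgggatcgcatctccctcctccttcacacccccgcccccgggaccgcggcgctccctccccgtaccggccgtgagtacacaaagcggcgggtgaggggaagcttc
Fgf10: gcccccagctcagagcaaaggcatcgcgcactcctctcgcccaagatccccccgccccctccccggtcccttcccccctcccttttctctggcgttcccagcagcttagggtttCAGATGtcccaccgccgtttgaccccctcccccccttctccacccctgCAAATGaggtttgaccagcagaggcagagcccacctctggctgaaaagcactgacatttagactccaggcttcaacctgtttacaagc
No CANNTG lay in the Fgf5 window and 2 lay in that of Fgf10, at 136 and 88 bases before the start. The stretch shown for Fgfr4 held none, while its full window of 250 bases held 2, at 112 and 10 bases before the RefSeq start. Of the 32851 windows of the same length in the table, 66.2% held at least 1 CANNTG and 31.8% at least 2. A match describes the letters and is not a binding site.

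Over all nuclei, Fgf5, Fgf8 and Fgfr4 were at least 1.5-fold lower in the library labelled cKO, and Fgf10 and Fgfr3 at least 1.5-fold higher. Of the 10 genes 9 had the 20 UMIs required. Among all 20214 genes with 20 UMIs, 7.74% were lower and 7.07% higher by the same fold, and since the genes were selected on these values nothing is read from their count of 3 and 2. Fgf5 fell from 31.6 to 18.2 CPM (647 and 550 UMIs; ratio 0.58, interval 0.51 to 0.65), a call that ends when each nucleus is counted once (0.78, 0.68 to 0.90) or weighted to the control make-up, as below. Fgf8 had 39 UMIs in 29 control nuclei and 0 in 6555 nuclei of the other library, at least 19.1-fold lower against the limit of 3 counts. Fgfr4 fell from 6.15 to 1.26 CPM (126 and 38 UMIs; ratio 0.20, 0.14 to 0.30). Fgf8 and Fgfr4 were thus the members furthest apart over all nuclei, a level that also moves with the share of GNP-like nuclei.

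In the other direction, Fgf10 was 30.01 and 45.5 CPM (615 and 1374 UMIs; ratio 1.52, 1.38 to 1.67) and Fgfr3 was 1.95 and 4.08 CPM (40 and 123 UMIs; ratio 2.09, 1.45 to 3.06). Fgf9 was 42.6 and 30.03 CPM (872 and 906 UMIs; ratio 0.71, 0.64 to 0.78), which is short of the fold used. Fgfr1 was level at 66.8 and 69.4 CPM (1369 and 2093 UMIs; ratio 1.04, 0.97 to 1.11). The remaining members were Fgfr2 at 1190 and 1342 CPM, Fgf18 with 22 and 27 UMIs, and Fgf17 with 0 and 7. Fgf17 was too sparse for any comparison.

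**Figure D1:**
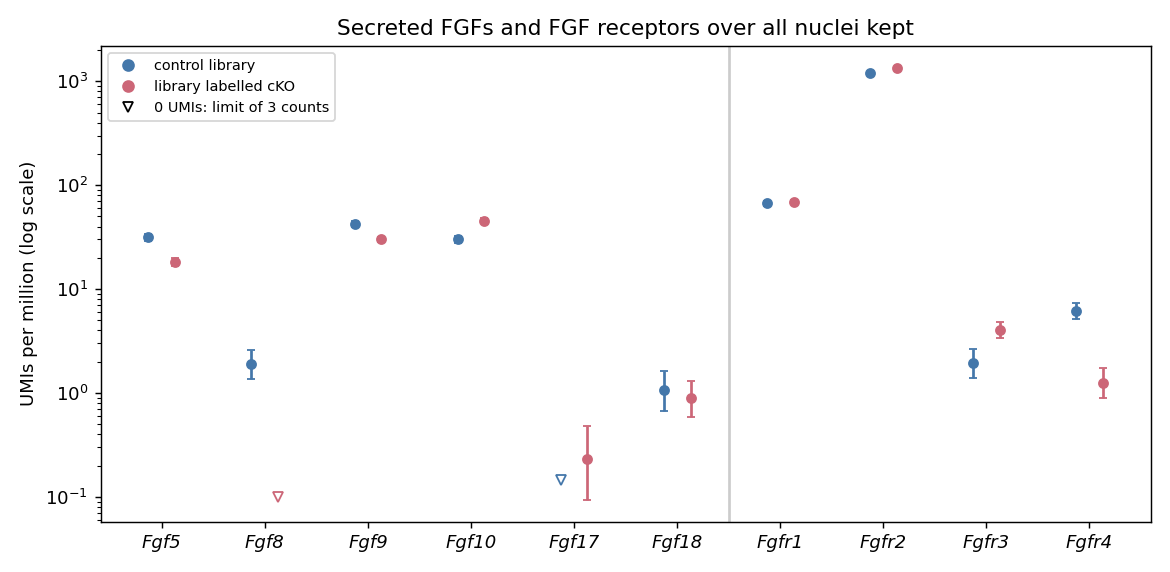
CPM (log scale) of each of the 10 genes over all nuclei kept, control in blue and labelled cKO in red, with exact 95% Poisson intervals; open triangles mark 0 UMIs at the limit of 3 counts. Fgf8 and Fgfr4 sit furthest below and Fgfr3 and Fgf10 above their control points.

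Part of these differences went with the make-up of the libraries. When the level of each cluster in the library labelled cKO was weighted by the UMIs that the control library held in that cluster, the ratio of Fgf9 moved from 0.71 to 0.95 and that of Fgf5 from 0.58 to 0.72. The ratio of Fgfr4 went from 0.20 to 0.16 and that of Fgf10 from 1.52 to 1.66, so these did not shrink at the control make-up. Fgfr3 moved from 2.09 to 1.68 and Fgfr1 from 1.04 to 0.92. Fgf8 had 0 UMIs in the library labelled cKO, so its ratio was 0 at either make-up. Its limit of 19.1-fold was not weighted and moves with the share of GNP-like nuclei.

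Fgf8, the isthmic patterning ligand, was a GNP-like signal in the control library. GNP-like nuclei held 31 of its 39 control UMIs, 20 in cluster 16 (dividing nuclei) and 11 in cluster 18 (with Ntn1 and Mfap4 among its leading genes), or 15.1 CPM for the class. The 31 UMIs came from 21 nuclei with at most 4 in any of them. The share of GNP-like nuclei with a UMI was 4.09% (2.55 to 6.18, median depth 3725.5 UMIs), against 0 of 292 in Purkinje cell-like nuclei, which are deeper (median 9282.5) and allow a share of up to 1.03%. Fgf8 thus stood above the level seen in cells that should lack it.

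In the library labelled cKO no GNP-like nucleus had a UMI of Fgf8. The control level would have given 6.5 UMIs in those 117 nuclei, so the class was at least 2.17-fold lower against 3 counts. Under marker gates on each nucleus and after thinning there were also 0 UMIs, but the upper bounds of the ratio were 1.92 and 4.78, so the difference was not resolved there. In cluster 18 alone only 1.78 UMIs would have been expected, so a difference there was not detectable at this depth. Over the granule lineage (GNP-like and GN-like together) there were 34 and 0 UMIs, at least 9.59-fold lower. This limit includes the smaller share of GNP-like nuclei in the library labelled cKO. At the control level of each class, only 6.5 UMIs would be expected in its GNP-like and 3.22 in its GN-like nuclei.

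Fgfr4, a receptor best known from muscle and liver, was found in the same clusters. GNP-like nuclei held 83 of its 126 control UMIs, at 40.4 CPM (32.2 to 50.1). Cluster 18 had 66 of these UMIs in 42 of 249 nuclei, or 77.5 CPM, and cluster 16 had 17 UMIs, or 14.2 CPM. Within the control GNP-like class cluster 18 was therefore the main source, while the Fgf8 level of cluster 18 (12.9 CPM) was within counting error of that of cluster 16 (16.6).

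In the library labelled cKO, Fgfr4 had 0 UMIs in 117 GNP-like nuclei where the control level would give 17.4, at least 5.81-fold lower; under marker gates the ratio was 0.29 (0.007 to 1.78), which includes 1. GN-like nuclei had 11 and 1 UMIs (ratio 0.08, 0.002 to 0.58), and Bergmann glia-like nuclei had 8 and 2 (ratio 0.12, 0.01 to 0.60). Purkinje cell-like nuclei went the other way within counting error, with 7 and 20 UMIs (2.38 and 3.32 CPM; ratio 1.40, 0.57 to 3.91). Lower Fgfr4 counts were thus seen in the granule lineage and, on few UMIs, in Bergmann glia-like nuclei. Ambient RNA, released from other nuclei, was not subtracted, and its part in these values was not tested. Thinned to 1000 UMIs per nucleus, the share of control GNP-like nuclei with an Fgfr4 UMI was 4.09% (21 of 513), against 0 of 117.

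The few GNP-like nuclei with the cKO label differed from those of the control in some of their own markers. The 9 GNP markers summed to 2514 and 2323 CPM, and Gli2, a Hedgehog pathway factor, was level at 663 and 655. The ratios of Gli1, Mfap4 and Ccnd1 were 1.26 (0.83 to 1.86), 0.80 (0.62 to 1.01) and 0.92 (0.63 to 1.31), each with an interval that includes 1. Barhl1, a homeobox factor of GNPs, had 276 and 3 UMIs. Atoh1 had 16 and 0, with an interval of the ratio that reaches 1.24 and so includes 1. Boc was 633 and 239 CPM, Ptch1 546 and 868 and Sfrp1 141 and 204. In this class 21.3% of the 11159 genes with 20 UMIs were at least 1.5-fold lower and 11.3% higher, and 2 of the 6 members measured in it were lower and 1 higher. The part of this marker shift in the Fgf8 and Fgfr4 values was not tested.

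Of 7 feedback and target genes measured in GNP-like nuclei, 2 were lower and 0 higher, beside 21.3% and 11.3% of all genes. Nothing is read from this count. The median log2 ratio was 0.02, beside -0.07 for all genes. The lower genes were Spry2 (32 and 3 UMIs; ratio 0.45, 0.09 to 1.43) and Etv5, an ETS factor induced by FGF receptors that was singled out after its value was seen. Etv5 had 161 and 6 UMIs in GNP-like nuclei (78.4 and 13.9 CPM; ratio 0.18, 0.06 to 0.40). By cluster it was 45.0 and 6.82 CPM in cluster 16 and 126 and 29.1 in cluster 18. In GN-like nuclei it was 37.3 and 33.9 CPM (ratio 0.91, 0.75 to 1.11), an interval that does not overlap that of the GNP-like nuclei. The GN-like clusters were not alike, with a ratio of 0.59 (0.44 to 0.80) in cluster 0 and 1.30 (0.97 to 1.75) in cluster 2. Of its relatives, Etv4 had 10 and 2 UMIs in GNP-like nuclei, too few for a comparison, and Etv1 was 54.1 and 67.3 CPM (ratio 1.25, 0.80 to 1.89).

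**Figure D2:**
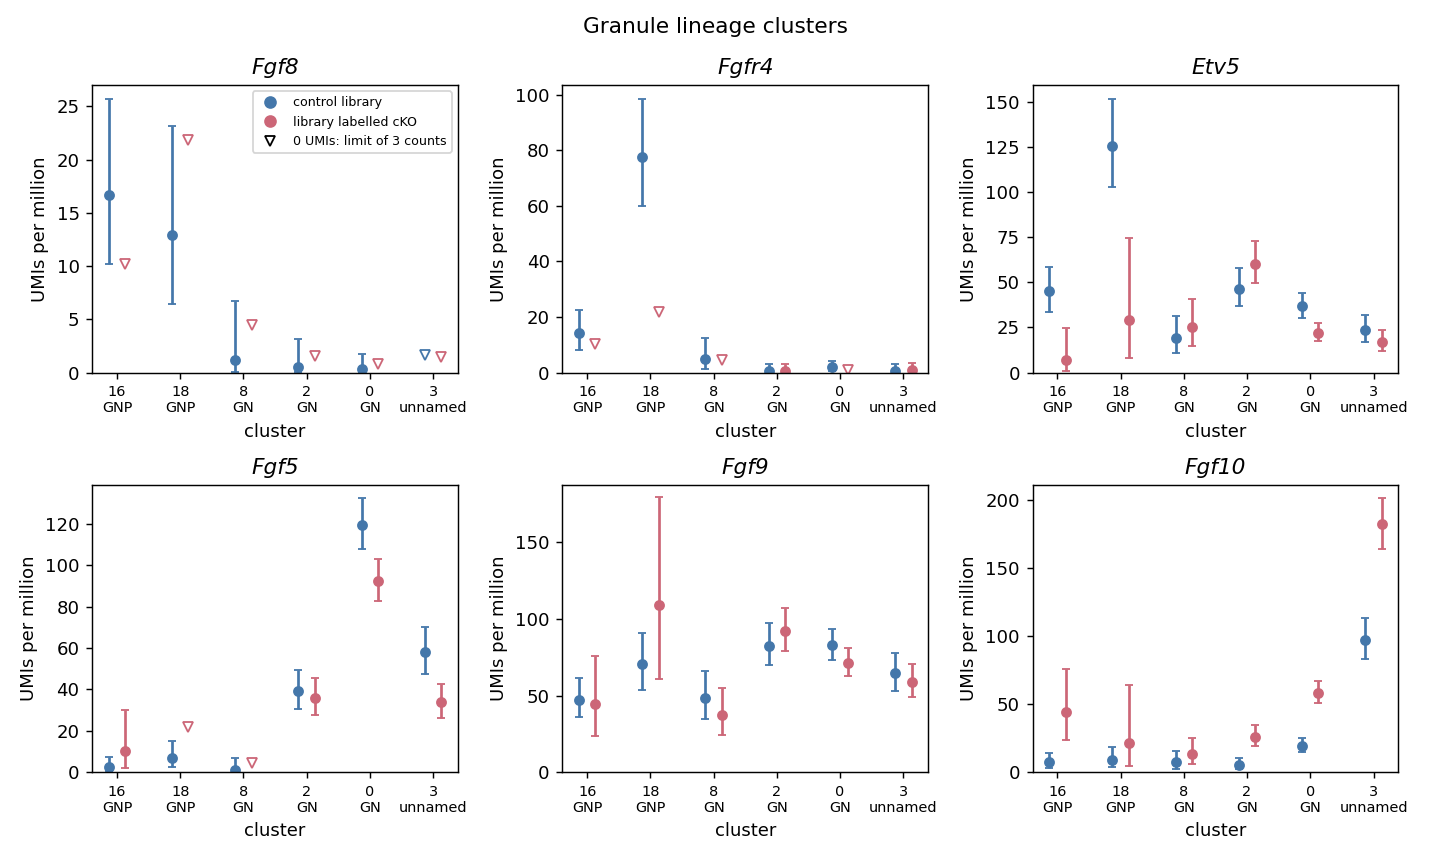
CPM of Fgf8, Fgfr4, Etv5, Fgf5, Fgf9 and Fgf10 in the GNP-like and GN-like clusters and in unnamed cluster 3, with exact 95% Poisson intervals, control in blue and labelled cKO in red; open triangles mark 0 UMIs at the limit of 3 counts. Fgfr4 and Etv5 are lower in clusters 16 and 18 and Fgf8 in cluster 16 of the library labelled cKO, the limit for Fgf8 in cluster 18 lies above its control level, Fgf5 peaks in cluster 0, and Fgf10 is higher in clusters 16, 2, 0 and 3.

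Fgf5, known as the ligand that ends the growth phase of hair, was a GN-like gene. GN-like nuclei had 77.8 CPM in the control library, 5.49-fold above the next class, and 65.3 in the other, 9.37-fold above the next. Cluster 0, marked by Svep1 and Frem2, held 376 of the 647 control UMIs and 335 of the 550 labelled cKO. Cluster 2 was lower at 39.1 and 35.8 CPM, and cluster 8, also GN-like, had 1 and 0 UMIs, so Fgf5 was not shared by all GN-like nuclei. The ratio was 0.84 (0.73 to 0.96) over GN-like nuclei and 0.77 (0.67 to 0.90) in cluster 0, both nearer to 1 than the 0.58 over all nuclei, and 0.93 (0.78 to 1.11) over GN-like nuclei when each nucleus was counted once. Outside the granule lineage it was lower in GABAergic interneuron-like nuclei (38 and 43 UMIs; ratio 0.58, 0.36 to 0.92) and in Purkinje cell-like nuclei (15 and 6 UMIs; ratio 0.20, 0.06 to 0.53). The control level of Purkinje cell-like nuclei was only 5.10 CPM, no higher than the 5.79 of microglia-like nuclei (1 UMI). The part of ambient RNA in these low values was not tested. In the GABAergic interneuron-like class 1 control nucleus held 7 of the 8 UMIs of cluster 19, and the shares of nuclei with a UMI, 4.30% (2.77 to 6.33) and 2.87% (2.03 to 3.93), overlapped in their intervals. Unnamed cluster 3 had 57.9 and 33.8 CPM (ratio 0.58, 0.43 to 0.80). The share of GN-like nuclei with a UMI was 22.3% and 20.7%, against 1.89% and 0.662% in microglia-like nuclei (median depth 4644 and 3994.5, against 2923 and 2546).

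Fgf9, the neuronal ligand for glia, was spread over the granule lineage and hardly differed between the libraries by class. GN-like nuclei had 77.9 and 74.2 CPM (447 and 457 UMIs; ratio 0.95, 0.83 to 1.09). GNP-like nuclei had 57.0 and 65.0 (117 and 28 UMIs; ratio 1.14, 0.73 to 1.73). Unlike Fgf5, Fgf9 was already present in cluster 16 at 47.5 and 44.3 CPM. Bergmann glia-like and oligodendrocyte lineage-like nuclei were lowest, with 4 and 10 UMIs and 0 and 3 UMIs. In the control order GN-like stood above GNP-like by 1.37-fold (1.11 to 1.69; under marker gates GNP-like was highest, 1.01-fold above GN-like, 0.73 to 1.38), while each class from Purkinje cell-like (21.1 CPM) down did not differ from the next beyond counting error. In the library labelled cKO, GN-like and GNP-like nuclei did not differ beyond counting error (1.14-fold, 0.78 to 1.74).

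Fgf10 is a ligand of the FGF7 subfamily best known from limb and lung budding. Among the named classes it was highest in Purkinje cell-like nuclei in both libraries. It had 82.9 and 91.6 CPM there (244 and 551 UMIs; ratio 1.10, 0.95 to 1.29). Nearly all of this came from cluster 6, at 131 and 152 CPM, while the Ebf2-rich Purkinje cluster 10 had 13.4 and 21.0. A UMI was seen in 39.1% and 36.4% of cluster 6 nuclei but in 10.2% and 11.04% of cluster 10 nuclei of like depth (median 9120.5 and 7842, against 9382.5 and 8138). Fgf10 thus split the Purkinje cell-like nuclei in the same way in both libraries. Unnamed cluster 3, described below, lay above the Purkinje cell-like class in both libraries. It held 173 of the 615 control UMIs and 382 of the 1374 labelled cKO.

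In the granule lineage Fgf10 was higher in the library labelled cKO. GN-like nuclei had 13.4 CPM in the control library and 43.7 in the other (77 and 269 UMIs; ratio 3.25, 2.52 to 4.25). The UMIs lay in 42 of 1131 and 145 of 1432 nuclei, and counting each nucleus once gave a ratio of 2.73 (1.92 to 3.94). By cluster it was 19.4 and 58.3 in cluster 0, 5.67 and 26.2 in cluster 2, and 97.3 and 182 in unnamed cluster 3 (173 and 382 UMIs; ratio 1.87, 1.56 to 2.25). GNP-like nuclei had 17 and 16 UMIs, or 8.28 and 37.1 CPM (ratio 4.49, 2.12 to 9.44). With classes set by marker gates on each nucleus instead of clusters, the ratio was 2.10 in GN-like nuclei and turned to 0.83 in the 161 and 24 nuclei gated as GNP-like. The GNP-like ratio was also 2.85 at a clustering resolution of 0.4 and 2.93 on nuclei counted once. After thinning to 1000 UMIs per nucleus, 1.07% and 3.15% of GN-like nuclei had a UMI.

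GABAergic interneuron-like nuclei went the opposite way, with 54 and 38 UMIs of Fgf10 (16.1 and 5.79 CPM; ratio 0.36, 0.23 to 0.55). These UMIs were concentrated: 14 of the 17 control UMIs of cluster 12 came from 1 nucleus, and 7 of the 9 of cluster 19 from another. Cluster 19 was named by 4 markers of this class, but the interneuron marker Pax2 was only 11.3 CPM in it. Clusters 7, 9, 12 and 14 of the class had 572 to 1279. Counting each nucleus once, 20 of 558 and 26 of 1291 nuclei had a UMI, with a ratio of 0.56 (0.30 to 1.06), so on nuclei the difference was within counting error. Microglia-like nuclei had 1 and 3 UMIs.

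**Figure D3:**
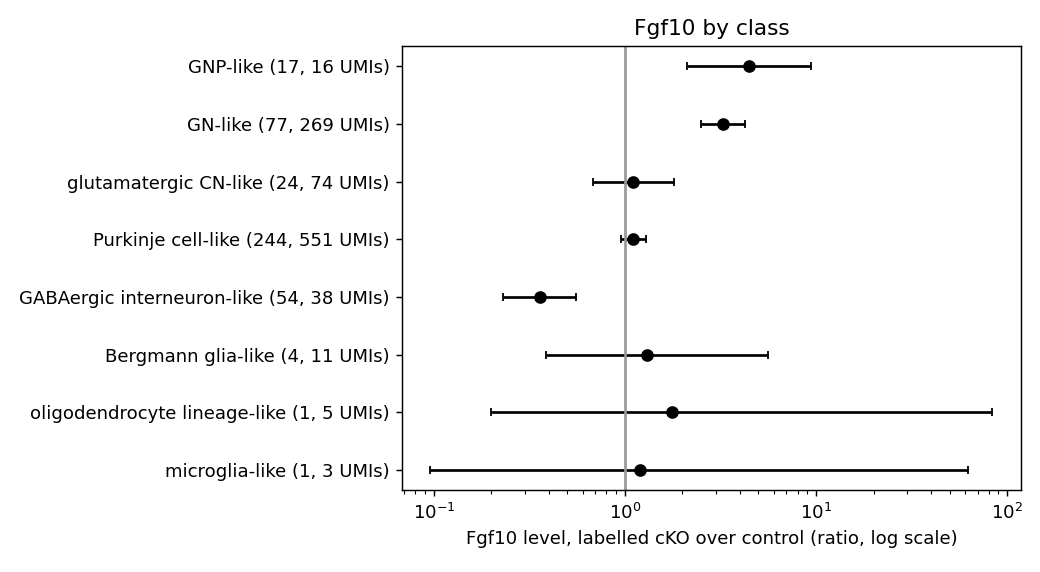
Ratio of the Fgf10 level (CPM) in the library labelled cKO over the control library by class, on a log axis, with exact 95% intervals from the UMIs given beside each class; the vertical line marks a ratio of 1. GN-like and GNP-like nuclei lie to the right, Purkinje cell-like nuclei near 1 and GABAergic interneuron-like nuclei to the left.

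The remaining isthmic ligands were rare. Glutamatergic CN-like nuclei (cerebellar nuclei neurons) had 4 of the 7 UMIs of Fgf17 and 14 of the 27 of Fgf18 in the library labelled cKO. In the control library this class had 0 UMIs of Fgf17 in 109 nuclei, which allows a share of up to 2.75%, and 3 of the 22 of Fgf18, beside 6 in GABAergic interneuron-like and 5 in GN-like nuclei. Fgf18 was 2.87 and 4.76 CPM in the class (0.59 to 8.38 in the control library), a difference within counting error. GNP-like nuclei, the main site of their relative Fgf8, had 0 and 0 UMIs of Fgf17 and 0 and 1 of Fgf18.

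Among the receptors, Fgfr1 was highest in Bergmann glia-like nuclei in both libraries. They had 429 and 360 CPM (659 and 1161 UMIs; ratio 0.84, 0.76 to 0.92). Counting each nucleus once, the ratio was 0.87 (0.75 to 1.01), which includes 1. The other classes of at least 20 nuclei in each library lay between 22.3 and 56.4 CPM in the control library and between 21.9 and 65.2 in the other. A UMI was seen in 74.7% and 65.2% of Bergmann glia-like nuclei, against 5.66% and 5.30% of microglia-like nuclei. Glutamatergic CN-like nuclei had 56.4 and 38.4 CPM (59 and 113 UMIs; ratio 0.68, 0.49 to 0.95, but 0.10 under marker gates), and GN-like nuclei 22.3 and 26.6 (ratio 1.19, 0.94 to 1.52).

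The Bergmann glia-like class held 2 clusters that differed in their receptor levels. Cluster 4 was rich in Gdf10, the Bergmann glia marker (845 CPM, against 62.7 in cluster 11), and cluster 11 in the astrocyte GABA transporter Slc6a11 (636 against 46.9). Of the other astrocyte markers, Slc7a10 (85.7 against 25.4) and Agt (31.0 against 5.39) were also higher in cluster 11, and Aqp4 was not (206 against 277). The parenchymal astrocyte list was highest in this class in both libraries, so the class name does not separate astrocytes from Bergmann glia. Fgfr1 was 538 and 434 CPM in cluster 4 (ratio 0.81, 0.72 to 0.90) and 203 and 218 in cluster 11 (ratio 1.07, 0.85 to 1.37). Fgfr3, a receptor known from astrocytes, was mostly in cluster 11, which held 22 of its 40 control UMIs and 88 of its 123 labelled cKO. Its level there was 43.8 and 79.4 CPM (ratio 1.81, 1.12 to 3.04), against 2 and 5 UMIs in cluster 4. Counting each Bergmann glia-like nucleus once, the Fgfr3 ratio was 1.61 (0.92 to 2.98), and it was 1.11 under marker gates, 1.19 after thinning, 1.29 at a resolution of 0.4 and 3.10 with doublets kept, each with an interval that includes 1.

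**Figure D4:**
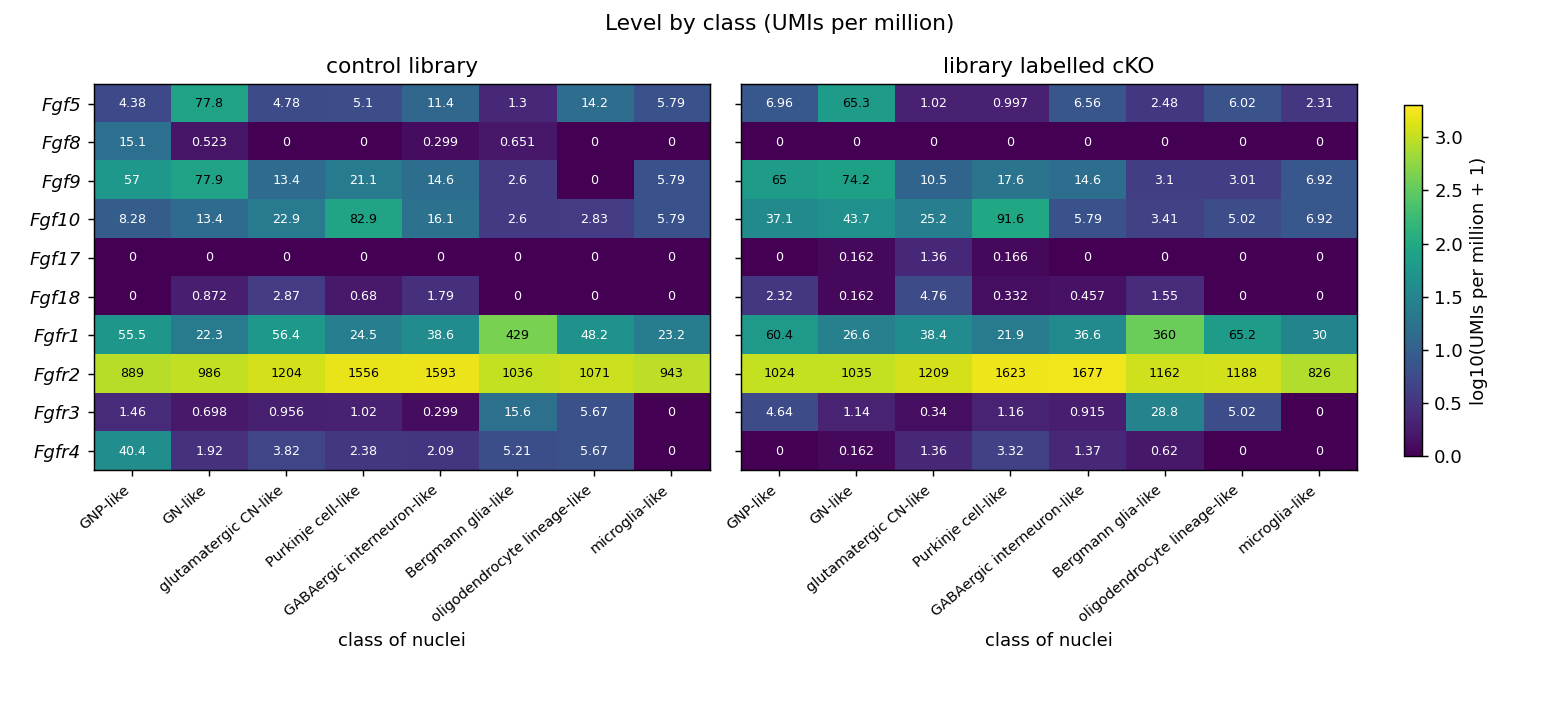
Level of each gene (CPM, printed in each cell and coloured on a log10 scale after adding 1) in 8 classes with at least 20 nuclei in each library, control on the left and labelled cKO on the right. Fgf5 and Fgf9 stand out in GN-like, Fgf10 in Purkinje cell-like, Fgfr1 in Bergmann glia-like and Fgfr4 in control GNP-like nuclei. Fgfr3 stands out in Bergmann glia-like nuclei, mainly those of cluster 11, and Fgfr2 is high in each class drawn.

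Fgfr2 differed from the other members in being nearly even over the classes. GABAergic interneuron-like and Purkinje cell-like nuclei were highest in both libraries. Purkinje cell-like nuclei stood 1.29-fold (1.21 to 1.38) above the next class in the control library and 1.26-fold (1.18 to 1.34) in the other. The Fgfr2 level was 889 CPM in the lowest and 1593 in the highest control class, a range of 1.79-fold, and 826 to 1677 in the library labelled cKO, 2.03-fold. Microglia-like nuclei, which should lack it, had 943 and 826, and 59.6% and 60.3% of them had an Fgfr2 UMI after thinning, against 60.6% and 61.3% of GN-like nuclei. Of the 152 and 134 genes of like level, 3 and 3 were more even, and their median range over classes was 17.7-fold and 29.9-fold.

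The gene model was also unusual. In GENCODE vM21, an older release on the same build as the files, Fgfr2 spans 2.96 Mb (chromosome 7, 130162451 to 133123350, minus strand), because 1 of its 27 transcripts reaches that far. The other 26 end at 130266263 and span 104 kb. The long model overlaps 69 other gene models, and which part of it was read is not recorded in the counts. No cell type difference is therefore read from Fgfr2, and its ratio of 1.13 over all nuclei (1.11 to 1.15) is given as a count of this model only.

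The rest of the pathway was described from fixed lists by the same fold. Over all nuclei, none of the 16 measured co-receptors and matrix partners, the 18 transducers or the 4 intracellular FGF homologous factors passed it in either direction. Of 7 other secreted FGFs measured, 2 were higher: Fgf3 with 75 and 215 UMIs (ratio 1.95, 1.49 to 2.57) and Fgf23 with 9 and 21 (ratio 1.59, 0.70 to 3.93). Purkinje cell-like nuclei held 47 and 173 of the Fgf3 UMIs, at 15.97 and 28.8 CPM. Of 14 feedback inhibitors and targets, 1 was lower, the Sprouty gene Spry3 with 34 and 31 UMIs (ratio 0.62, 0.37 to 1.04). Among all 20214 genes measured, 7.74% were lower and 7.07% higher, so nothing is read from these list counts of 2 and 1. The decoy receptor Fgfrl1 had 37 and 53 UMIs (ratio 0.97, 0.63 to 1.52). The median log2 ratio was -0.01, 0.20, 0.01, -0.05 and -0.23 for the other secreted FGFs, homologous factors, co-receptors, transducers and feedback genes, beside -0.02 for all genes.

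Within the granule lineage, where 14.2% of 15704 genes were lower and 5.74% higher, the lists held 5 lower and 3 higher genes. In the order just given, the lists had 5, 4, 14, 18 and 14 genes measured there. The members measured there were 2 lower and 1 higher of 7. Lower were Fgf7 (22 and 10 UMIs), the co-receptor Klb (18 and 5), the adhesion protein Flrt2, which binds FGF receptors (509 and 268; ratio 0.62, 0.53 to 0.72), and the adaptors Frs3 (32 and 15) and Shc1 (38 and 7; ratio 0.22, 0.08 to 0.49). The intervals of Fgf7 and Frs3 included 1. Flrt2 was level in GN-like nuclei at 38.4 and 37.7 CPM and 141 and 83.6 in GNP-like nuclei, so its fall over the lineage went with the smaller share of progenitors and a lower level in them. Higher were Fgf14 (709 and 1327 CPM), the sulphatase Sulf2 (33 and 45 UMIs) and the inhibitor Spry1 (6 and 19 UMIs).

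In Bergmann glia-like nuclei, where Fgfr1 was highest, the feedback genes were tallied in the same way. In this class 6.48% of 13346 genes were lower and 8.38% higher, and 1 of the 3 members measured, Fgfr3, was higher. Of 11 feedback and target genes measured, 4 were lower and 0 higher, with a median log2 ratio of -0.46 beside 0.01 for all genes. The count of lower genes was 1 among those with at least 100 UMIs and 0 at 2-fold. Spry2, an inhibitor of receptor signalling, was 81.3 and 50.8 CPM (125 and 164 UMIs; ratio 0.62, 0.49 to 0.79). Spry1, Dusp4 and Dusp6 had 21 and 26, 10 and 13, and 10 and 13 UMIs, with intervals that include 1. Hs6st3, which sulphates heparan chains, was 345 and 155 CPM (ratio 0.45, 0.40 to 0.51).

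The clusters of the class were also tallied apart. In cluster 4, 4 of 9 feedback genes were lower (Spry1, Spry2, Spred2 and Etv4), beside 7.27% of all 12022 genes measured there, with a median log2 ratio of -0.51. In cluster 11, 1 of 8 was lower, beside 873 of all 9704 genes measured there, with a median of -0.05. Spry2 was 97.6 and 47.2 CPM (ratio 0.48, 0.36 to 0.64), Spred2 190 and 118 (0.62, 0.51 to 0.75), and Etv4 56.0 and 34.0 (0.61, 0.42 to 0.87). Etv5 was short of the fold at 189 and 143 (0.76, 0.63 to 0.91). In cluster 11 Spry2, Spred2, Etv4 and Etv5 had ratios of 1.21 (0.74 to 2.02), 0.91 (0.67 to 1.26), 0.97 (0.64 to 1.48) and 1.04 (0.79 to 1.40). The intervals of Spry2 did not overlap between the clusters, while those of the other 3 did, and the difference between clusters was not tested over replicates. Within the class the markers Tnc (ratio 0.74) and Gdf10 (1.64) also differed between the libraries, and the part of this shift in the feedback genes was not tested.

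**Figure D5:**
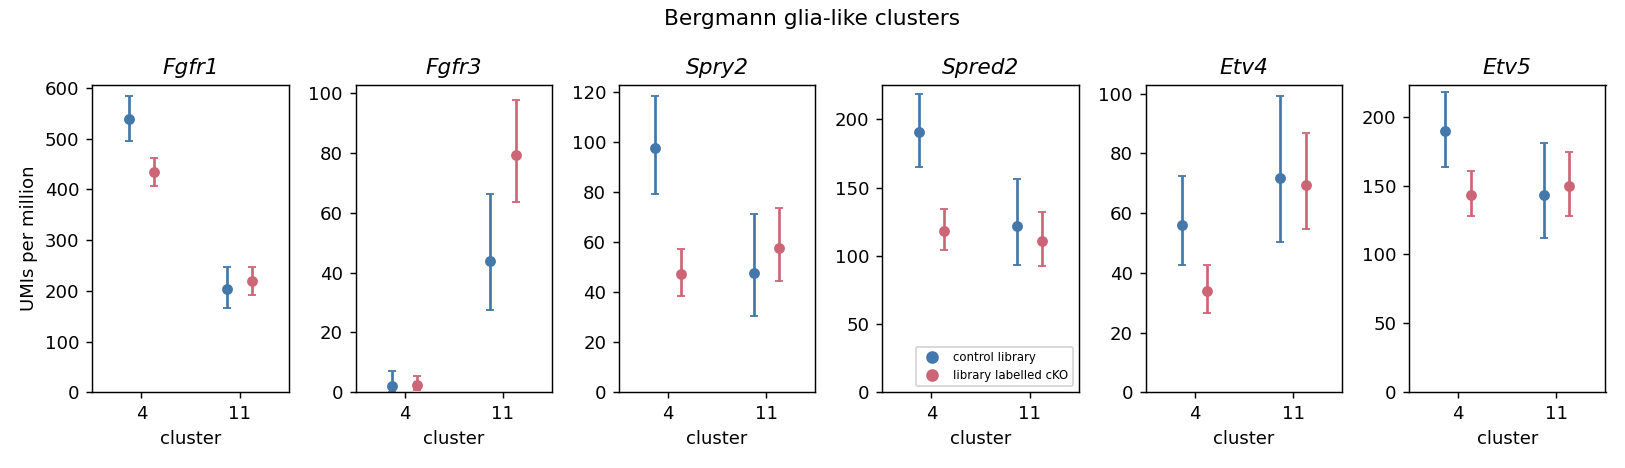
CPM of Fgfr1, Fgfr3, Spry2, Spred2, Etv4 and Etv5 in Bergmann glia-like clusters 4 and 11, with exact 95% Poisson intervals, control in blue and labelled cKO in red. In cluster 4 Fgfr1, Spry2, Spred2, Etv4 and Etv5 are lower in the library labelled cKO, and Fgfr3 is found mainly in cluster 11.

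The genes most like each member were sought over the 18 points of 9 classes in 2 libraries, which share depth and library, among 13640 genes. Members with at least 200 UMIs entered. Fgf5 was most like 4930579J19Rik (Pearson r = 0.90), Aplp2 (0.89) and Cartpt (0.87), and Fgf9 most like Gm26903, Xkr7 and Ppp2r2c (0.92 each). Fgf10 was most like Crmp1 (0.90), Slc9a5 and Gm12158 (0.86 each). Fgfr1 was most like Sparcl1, Wif1 and Daam2 (0.95 each), and Fgfr2 most like Gm15594 and Gm47352 (0.92 each) and Tfap2a (0.91). These values describe the 18 points and carry no p-value.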

How the data were processed

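Single-nucleus libraries (10x Genomics 3′ v3.1) were made from 12 pooled P1 cerebella per genotype. The deposited tables hold raw UMI counts per gene and nucleus, made by the authors with bcl2fastq and Cell Ranger 7.0.1 on mm10. Whether intronic reads were counted is not given in the sources used here. Nuclei over 25% mitochondrial UMIs were dropped, as were the top-scoring barcodes by Scrublet (scanpy 1.11.5, 0.8% per 1000 barcodes: 189 control, 386 labelled cKO). Kept nuclei held 20493455 and 30169066 UMIs. No correction for ambient RNA was made. Members and pathway genes were left out of clustering, which used Seurat 5.3.0 (CCA integration, 20 dimensions, resolution 0.8, R 4.3.3). A cluster was named from at least 3 markers. The summed level of each marker list was highest in its own class, except the GN list, which was highest in GABAergic interneuron-like nuclei (10810 and 11223 CPM, against 8427 and 8726 in GN-like nuclei). The lists for GABAergic progenitors, parenchymal astrocytes, endothelium, ependyma and choroid, and erythroid cells named no cluster, with highest sums of 110 and 126, 1462 and 1548, 2683 and 175, 33.7 and 43.7, and 231 and 52.4 CPM.

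UMIs were summed per class and library and given as CPM, per 1000000 UMIs of that class. Poisson, Clopper-Pearson and conditional binomial intervals (scipy 1.17.1) are exact, at 95%. A gene with at least 20 UMIs over both libraries counted as lower or higher past 1.5-fold. A count of 0 was read against 3 counts. Shares of nuclei were also given after thinning to 1000 UMIs. Values of 1 class of nuclei are not reported here. No test across replicates was possible. The calls and intervals were tried on simulated Poisson counts, which lack the clumping of UMIs within nuclei. The intervals assume such counts, so this simulation could not check them under clumping. Named genes were all members, listed pathway genes past 1.5-fold over all nuclei or the granule lineage, Fgfrl1, Tox3 and the 3 genes most like each member on log2(CPM + 5). Other genes named in GNP-like and Bergmann glia-like nuclei were chosen after their values were seen. The members and lists were chosen with earlier results of these data known. Alternatives covered scaling, thinning, doublets, depth, clustering and gating, and some were added after seeing the data.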

Additional observations from a re-analysis of the deposited data

Results flagged for a closer look

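The Fgf10 ratio lay on opposite sides of 1 in different classes. The ratio of the library labelled cKO over control was 3.25 in GN-like and 4.49 in GNP-like nuclei but 0.36 in GABAergic interneuron-like nuclei, each with an interval that leaves out 1. With 1 library per genotype the difference between classes was not tested. The GABAergic interneuron-like value drew 14 and 7 control UMIs from a pair of nuclei. The GNP-like ratio turned to 0.83 under marker gates and was 2.85 at a resolution of 0.4. On GABAergic interneuron-like nuclei counted once the ratio was 0.56 (0.30 to 1.06), within counting error.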

How the results depend on the processing

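Of 200 alternative values over 40 results, 168 lay within the counting interval of the reported value (for counts, within 1.5 times of it), 31 lay outside it and 1 called value turned its direction. Values near 1 could cross 1 in either set, as Fgf9 in GNP-like nuclei did, from 1.14 to 0.88 at resolution 0.4. The Fgf10 ratio in GNP-like nuclei turned to 0.83 under marker gates on each nucleus, which leave 161 and 24 such nuclei. The gates also gave 0.29 for Fgfr4 and 0.72 for Fgf9 in GNP-like nuclei, 2.10 for Fgf10 in GN-like, 1.11 for Fgfr3 in Bergmann glia-like and 0.10 for Fgfr1 in glutamatergic CN-like nuclei, and control levels of the highest class over the next of 1.01 for Fgf9, where GNP-like became the highest class, and 11.1 for Fgfr1. Fgf10 in GN-like nuclei was 2.38 with another seed and 2.37 with cluster 3 counted in. Thinning gave ratios over all nuclei of 1.23 for Fgfr1, 1.15 for Fgfr2 and 0.11 for Fgfr4, and 0.58 for Fgf10 in GABAergic interneuron-like nuclei. Median-of-ratios scaling gave 1.15 for Fgfr2. Keeping doublets gave 3.10 for Fgfr3 in Bergmann glia-like nuclei. Counting nuclei once gave, over all nuclei, 0.78 for Fgf5, 0.79 for Fgf9 and 1.17 for Fgfr1, and 0.91 and 0.56 for Fgf10 in Purkinje cell-like and GABAergic interneuron-like nuclei. At 2-fold, 1 member, Fgfr3, was higher over all nuclei, and Fgf8 and Fgfr4 were lower. Feedback genes lower numbered 1 in Bergmann glia-like nuclei with at least 100 UMIs and 0 at 2-fold, and 0 and 0 over all nuclei. The share of all genes under these stricter rules is not given here, so nothing is read from these counts. Without thinning, the share of nuclei with a UMI was 4.09% for Fgf8 and 10.5% for Fgfr4 in control GNP-like nuclei, 27.4% and 24.9% for Fgf10 in Purkinje cell-like and 4.65% and 7.50% for Fgfr3 in Bergmann glia-like nuclei. Except where the setting itself changes the nuclei or counts used, the cause was not tested. No paired analysis was possible because each genotype has 1 library. Depth limits Fgf8, Fgf17 and Fgf18 most.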

Other observations

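The intracellular FGF homologous factors, which are not secreted and act on sodium channels, are given here in the granule lineage. In GNP-like nuclei Fgf12 was 267 and 165 CPM (ratio 0.62, 0.47 to 0.79), Fgf14 was 253 and 167 (0.66, 0.51 to 0.85) and Fgf13 was 510 and 933 (1.83, 1.63 to 2.05). In GN-like nuclei Fgf14 was 873 and 1408 CPM (1.61, 1.56 to 1.67), Fgf12 517 and 629 (1.22, 1.16 to 1.28) and Fgf13 717 and 900 (1.25, 1.20 to 1.31), and Fgf11 had 13 and 8 UMIs (0.57, 0.21 to 1.49). The secreted ligand Fgf1 had 129 and 9 UMIs in GNP-like nuclei (0.33, 0.15 to 0.65), with 4 of the 9 in 1 nucleus. These genes were chosen after their values were seen.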
